A study of Homo sapiens with 60 samples.

Results

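Metallothioneins, their metal-sensing transcription factor MTF1 and the zinc exporter SLC30A1 were followed by RNA sequencing in cells of SW1783, a human astrocytoma line, that had received herbal extracts for 24 h. The 8 genes (MT1E, MT1F, MT1G, MT1M, MT1X, MT2A, MTF1 and SLC30A1) were taken by symbol from the 60675 genes of the count table. Their list was chosen with earlier results of these data known. Of these, 6 passed the filter on low counts, and MT1G and MT1M did not.

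Cells in Leibovitz's L-15 medium received the vehicle, 0.1% DMSO (3 libraries), or a 70% ethanol extract at a high, medium and low dose. The series text states another DMSO share, and the labels give none for the extract libraries. Coptidis Rhizoma was given at 14, 2.8 and 0.56 µg/mL and Zizyphi Fructus at 500, 100 and 20 µg/mL, with 2 libraries per dose. There were 3 libraries per dose of Citri Unshius Pericarpium, Cimicifugae Rhizoma and Aconiti Lateralis Radix Preparata at 500, 100 and 20 µg/mL and of Bupleuri Radix at 210, 42 and 8.4 µg/mL. The formulas Yijung-tang and Banhasasim-tang were given at 500, 100 and 20 µg/mL with 2 libraries and 1 library per dose. Where an extract cut viability by 20% below 500 µg/mL that concentration became its high dose, so doses in mass differ between extracts. The herbs are called below by the first word of their names. The labels do not say whether replicates were separate cultures, and the p-values describe only how these libraries scatter, which may be technical.

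Extract libraries carry a set number in their names, shared by Coptidis and Zizyphi, by Citri and Cimicifugae, by Bupleuri and Aconiti, and by the formulas, and no vehicle library carries one of these numbers. Set and treatment cannot be told apart in any comparison with the vehicle, whereas the doses of an extract share a set. The library of high-dose Aconiti labelled replicate 1 and that of low-dose Yijung-tang labelled replicate 1 stood apart from the rest and were left out of group values and tests. With both kept, in a fit where all groups share one estimate of spread, 19 of the 73 calls between groups described here still passed and 54 did not. Libraries held 11329310 to 30990264 counts, and levels are CPM, the counts-per-million scale, after TMM scaling. Where libraries are said to lie above or below every vehicle library, the share of all genes doing so was not counted. Of 10 astrocyte markers, 6 averaged below 1 CPM, among them GFAP at 0.143 and AQP4 at 0.006 CPM, while VIM and CD44 were abundant (mean over libraries). In bulk RNA, fewer cells of a kind and less RNA per cell cannot be told apart.

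Metallothioneins are small cysteine-rich proteins that bind zinc and copper and buffer free zinc in the cell. When free zinc rises, the zinc-finger factor MTF1 binds metal response elements in the promoters of metallothionein genes and of SLC30A1, which encodes the zinc exporter ZnT1 of the plasma membrane, so the buffer and the exporter are classically induced together. Metallothionein genes also respond to oxidants, heat shock and glucocorticoids, and astrocytes are a main site of metallothionein in brain.

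The metallothionein genes lie side by side. In GENCODE v29 (GRCh38) the cluster of 16 metallothionein genes and pseudogenes covers 119148 bases at chr16:56565049-56684196. MT2A (ENSG00000125148) lies at chr16:56608199-56609497, MT1E (ENSG00000169715) at chr16:56625475-56627112, MT1M (ENSG00000205364) at chr16:56632233-56633986, MT1F (ENSG00000198417) at chr16:56657694-56660698 and MT1X (ENSG00000187193) at chr16:56682424-56684196, all on the plus strand. MT1G (ENSG00000125144) lies between them on the minus strand at chr16:56666731-56668065. MTF1 (ENSG00000188786, chr1:37809567-37859620) and SLC30A1 (ENSG00000170385, chr1:211571568-211578742) are on the minus strand of chromosome 1.

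The metal response element core is written here as TGCACNC or TGCGCNC on either strand, where N is any base, and neighbouring cores may overlap. Promoters were taken from RefSeq on GRCh38.p14, where 4 of the 8 genes had an entry. The 250 bases before the start held 7 cores in MT2A, 4 in MT1X, 1 in SLC30A1 and 0 in MTF1. The RefSeq starts differ from those of GENCODE v29: the MT2A window lies wholly inside the GENCODE span given above, and that of SLC30A1 wholly upstream of it. At least 1 core was present in 24.7% of 27305 promoters of the same length, and at least 4 in 0.366%. The sequences shown are from the 3 genes that had both an entry and at least 1 core. MT1E, MT1F, MT1G and MT1M had no entry. They are read 5′ to 3′ on the strand of the gene, and capitals mark the cores. The MT1X stretch (chr16:56682220-56682423, plus strand) ends 47 bases before the RefSeq start, the SLC30A1 stretch (chr1:211579162-211579411, minus strand) ends at the base before it, and the 2 MT2A sites (chr16:56608486-56608512 and chr16:56608520-56608546, plus strand) end 72 and 38 bases before it.
MT1X promoter: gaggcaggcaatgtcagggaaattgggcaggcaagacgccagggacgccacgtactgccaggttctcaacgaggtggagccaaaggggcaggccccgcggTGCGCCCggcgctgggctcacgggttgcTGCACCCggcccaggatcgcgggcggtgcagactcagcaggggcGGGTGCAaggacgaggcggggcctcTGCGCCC
MT2A site e: agcgcggggcGTGTGCAggcagcgccc
MT2A site f: gcggggctttTGCACTCgtcccggctc
SLC30A1 promoter: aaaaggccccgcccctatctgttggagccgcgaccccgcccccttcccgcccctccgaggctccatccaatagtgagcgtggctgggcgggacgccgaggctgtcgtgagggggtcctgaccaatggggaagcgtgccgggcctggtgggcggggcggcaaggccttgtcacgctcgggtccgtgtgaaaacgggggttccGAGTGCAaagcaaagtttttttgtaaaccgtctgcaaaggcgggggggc
All 4 cores of MT1X lie within 150 bases of the start, while the single core of SLC30A1 lies 43 bases before it. The core of the antioxidant response element (TGACNNNGC), the short form of the site that NRF2 binds, was present once each in MT2A, MT1X and SLC30A1 and was not found in MTF1, against 11.0% of all promoters with at least 1. These matches describe letters in a window and were not measured as bound sites.

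Coding sequences of the 6 metallothioneins are 88.7 to 95.2% identical over the 15 pairs, with a longest shared run of 96 bases. No 100-base window of their transcripts was shared with another gene, except 223 of 1967 windows (11.3%) of MT1X, which AC026461.1 shares; that gene had 0 counts in all 60 libraries. Reads trimmed below that length could still be split between paralogs by the estimate, so values of single metallothioneins are less certain than their sum. MT2A was the main transcript of the family. Levels per kilobase used 1 GENCODE transcript a gene, of 786 bases for MT2A, 450 for MT1X and 704 for MT1E. The RefSeq start of MT2A differs, so its level and share per kilobase depend on that choice. Per kilobase of transcript, the vehicle level of MT2A was 288.7 CPM, or 85.1% of the 6 metallothioneins. MT1X stood at 26.7 CPM and MT1E at 22.9 CPM. On the same scale SLC30A1 stood at 18.0 CPM and MTF1 at 5.07 CPM.

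The metallothionein sum was highest in cells given the high dose of Bupleuri and lowest in those given the high dose of Zizyphi. Counts of all 12 metallothionein genes together came to 246, 240 and 282 CPM in the vehicle libraries (256 ± 22.9, SD, n = 3). High-dose Bupleuri libraries held 513, 486 and 537 CPM (512 ± 25.1, n = 3), all above every other library used. High-dose Aconiti libraries held 335 and 324 CPM (329 ± 7.61, n = 2), above every vehicle library, and high-dose Zizyphi libraries held 181 and 153 CPM (167 ± 19.6, n = 2), below every vehicle library. The Coptidis sum went from 184 ± 15.0 CPM at the low dose to 253 ± 20.2 CPM at the high dose (n = 2 each), where it overlapped the vehicle. The sum was not tested, since its largest part, MT2A, was tested alone.

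**Figure D1:**
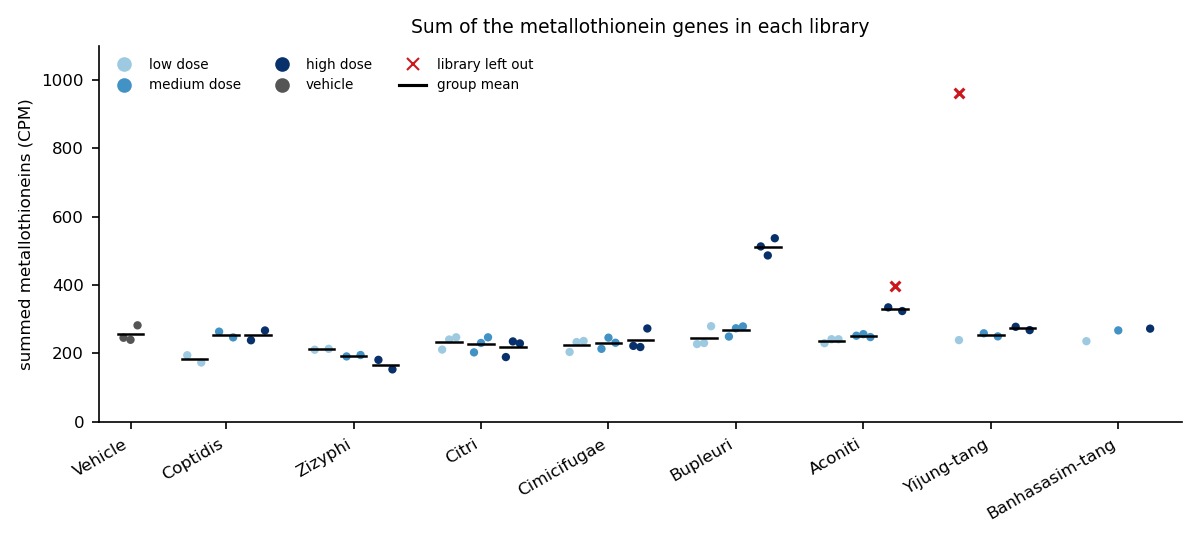
Summed counts of the 12 metallothionein genes in CPM in each library, by extract and dose, with bars at the group means and crosses for the 2 libraries left out. The 3 high-dose Bupleuri libraries sit between 486 and 537 CPM, and the left-out low-dose Yijung-tang library sits at 961 CPM.

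MT2A, the most abundant metallothionein, was above the vehicle with the high doses of Bupleuri and Aconiti and below it with that of Zizyphi. Vehicle libraries held 218, 211 and 251 CPM, high-dose Bupleuri libraries 461, 436 and 486 CPM, and high-dose Aconiti libraries 301 and 289 CPM. Both treated groups lay above every vehicle library. Relative to the vehicle the log2 fold change was 1.02 ± 0.09 (SE) with Bupleuri (edgeR quasi-likelihood test, adjusted p = 1.17e-13) and 0.38 ± 0.09 with Aconiti (adjusted p = 0.0020). With both left-out libraries kept, of which the Aconiti one held 365 CPM, the latter was 0.47 and no longer passed (adjusted p = 0.077). High-dose Zizyphi libraries held 166 and 139 CPM, below every vehicle library, a log2 change of -0.57 ± 0.10 (adjusted p = 2.97e-05, and 0.299 with both left-out libraries kept). MT2A did not pass the test at the high doses of Coptidis (0.07 ± 0.10, adjusted p = 0.532), Citri, Cimicifugae or Yijung-tang (adjusted p 0.0733 to 0.649). The Citri value passed with no filter on low counts (-0.18, edgeR adjusted p = 0.000365). It also passed with a replicate block (-0.20, edgeR adjusted p = 0.032) and without Citri replicate 2 (-0.26, adjusted p = 0.0396).

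Within sets, where high and low doses of the same extract are compared, MT2A rose with dose in 3 of 6 extracts. It did not pass in the other 3, among them Zizyphi (-0.27, from 183.8 and 184.3 CPM at the low dose). With no filter on low counts the Zizyphi value passed (edgeR adjusted p = 7.30e-05). Low-dose Zizyphi was itself called below the vehicle, a call lost with both left-out libraries kept. The low-dose libraries of Bupleuri held 195, 199 and 243 CPM, and the high dose was higher by a log2 of 1.12 ± 0.09 (edgeR adjusted p = 6.10e-15). The medium dose, at 218, 239 and 244 CPM, overlapped the low dose, so the rise was seen between 42 and 210 µg/mL. Aconiti rose by 0.52 ± 0.09 from the low dose (198, 207 and 210 CPM; adjusted p = 7.52e-05, and 0.0571 with both left-out libraries kept). Coptidis rose by 0.58 ± 0.11 (adjusted p = 5.55e-06, and 0.0622 with both kept), from 169 and 149 CPM at the low dose to 224 and 252 CPM at the high dose. The Coptidis pattern began below the vehicle: its low dose was lower than the vehicle by 0.51 on the log2 scale (-0.51 ± 0.10, adjusted p = 0.000834). Its medium dose, at 229 and 217 CPM, was above the low dose by 0.49 ± 0.11 (adjusted p = 0.000732, and 0.0501 without low-dose replicate 3). With both left-out libraries kept, neither of these calls passed (edgeR adjusted p = 0.951 and 0.677). Scaled by plain library totals, the high-dose change from the vehicle was -0.21 in place of 0.07, and the rise from low to high dose was 0.33 in place of 0.59, both as log2 ratios of group means.

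Ordered by mean level, MT2A ran over the 21 groups with replicates from 461 CPM (high-dose Bupleuri) through 295 CPM (high-dose Aconiti) to 153 CPM (high-dose Zizyphi). Of the 20 pairs of neighbours in this order, 16 had libraries that overlapped. The 4 gaps were those below high-dose Bupleuri, below high-dose Aconiti, and on either side of medium-dose Zizyphi, whose 2 libraries held 169.6 and 170.5 CPM.

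**Figure D2:**
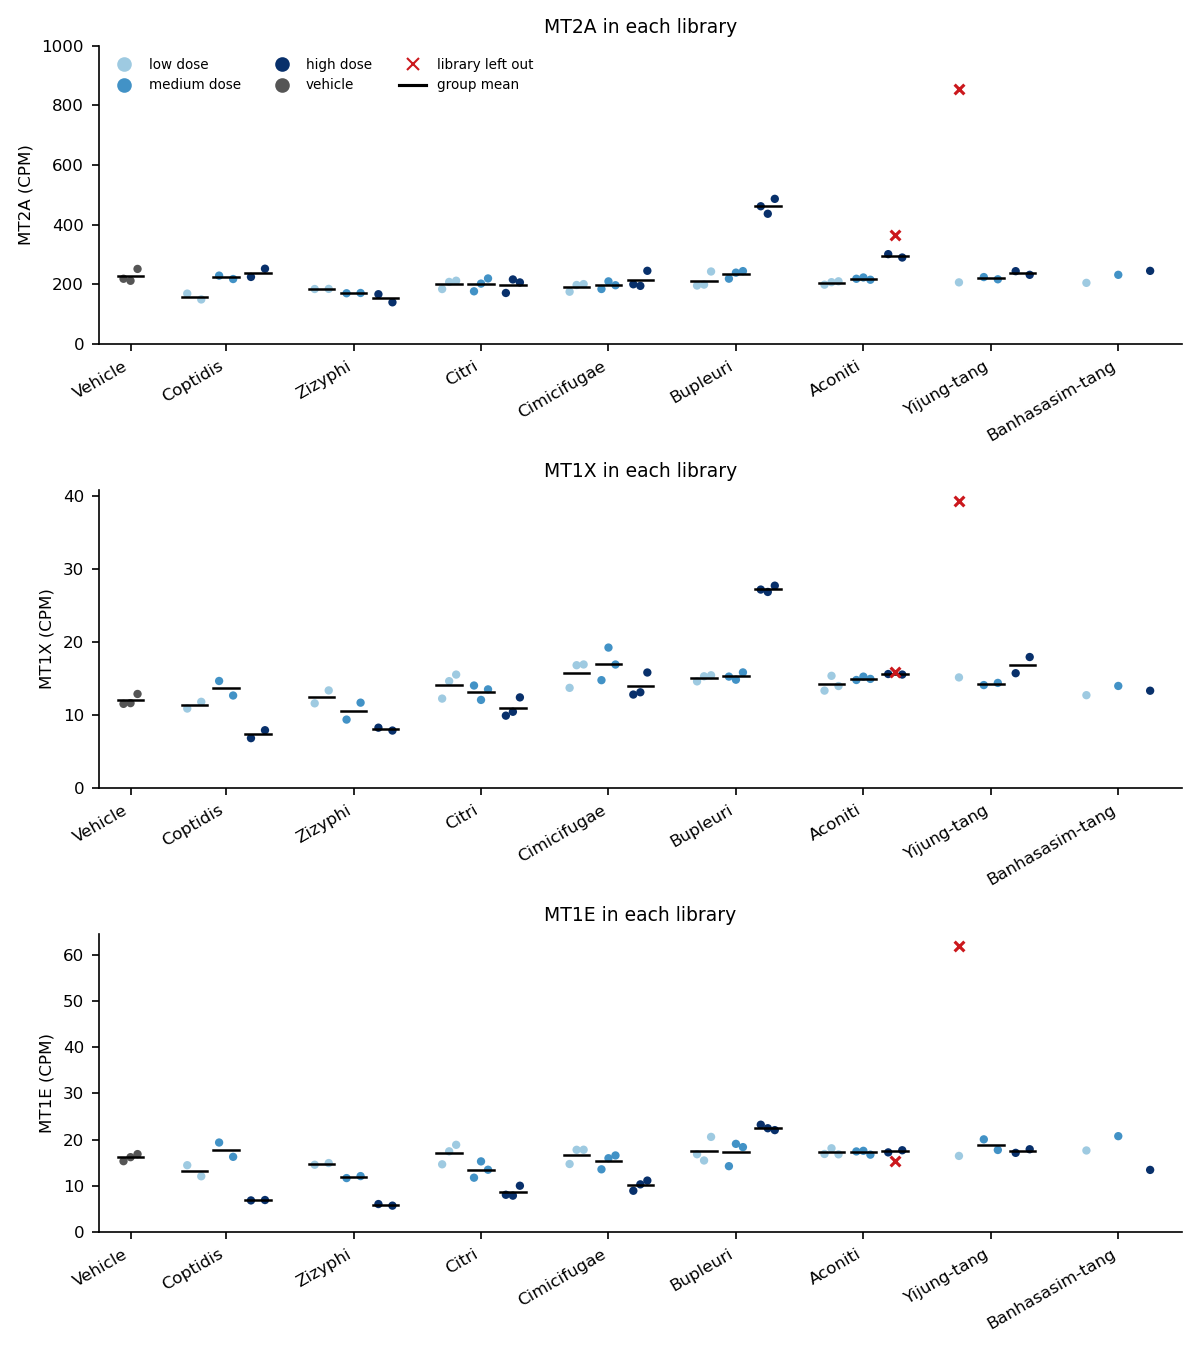
CPM of MT2A, MT1X and MT1E in each library by extract and dose (light to dark blue, low to high), with bars at the group means and crosses for the 2 libraries left out. High-dose Bupleuri is above the vehicle in all 3 panels, while high-dose Coptidis is below the vehicle for MT1X and MT1E but overlaps it for MT2A.

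MT1X, whose promoter is printed above, was above the vehicle at the high dose of 3 extracts and below it at that of 2. Vehicle libraries held 11.5, 11.6 and 12.9 CPM, and high-dose Bupleuri libraries 27.2, 26.9 and 27.7 CPM, a log2 increase of 1.19 ± 0.09 (edgeR adjusted p = 3.01e-14). High-dose Yijung-tang, at 15.7 and 17.9 CPM, was higher by 0.50 ± 0.11 (adjusted p = 0.000415, and 0.132 with both left-out libraries kept), and high-dose Aconiti, at 15.6 and 15.5 CPM, by 0.38 ± 0.11 (adjusted p = 0.0072, and 0.0823 with both kept). High-dose Coptidis, at 6.82 and 7.90 CPM, was lower by 0.70 (-0.70 ± 0.13, adjusted p = 1.12e-05), and high-dose Zizyphi, at 8.25 and 7.86 CPM, by 0.57 (-0.57 ± 0.13, adjusted p = 0.000731, and 0.157 with both kept). In these 5 comparisons the treated libraries lay wholly on one side of the vehicle libraries. Medium-dose Cimicifugae, at 14.8, 19.2 and 16.9 CPM, was also higher, by 0.49 (adjusted p = 0.000126, and 0.0783 with both kept). MT1X was above every vehicle library in 35 of 51 extract libraries and below every one in 8.

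From low to high dose MT1X rose with Bupleuri (0.85 ± 0.09, edgeR adjusted p = 4.10e-11), from 14.6, 15.3 and 15.4 CPM. It fell with Coptidis (-0.63 ± 0.14, adjusted p = 0.000142), from 10.9 and 11.8 CPM, and with Zizyphi (-0.62 ± 0.13, adjusted p = 0.00139), from 11.6 and 13.4 CPM. With Citri it fell by 0.37 (-0.37 ± 0.10, adjusted p = 0.00653), from 12.2, 14.6 and 15.5 CPM to 9.90, 10.4 and 12.4 CPM, groups that overlap; this call was lost without high-dose replicate 1 (adjusted p = 0.0602) or low-dose replicate 3 (0.0813). With both left-out libraries kept, the Zizyphi and Citri calls were lost (edgeR adjusted p = 0.418 and 0.496), while the Bupleuri and Coptidis calls held. The Coptidis change is opposite in sign to that of MT2A in the same libraries. Between high and low dose MT1X did not pass with Cimicifugae or with Aconiti. Aconiti means were 14.2, 15.0 and 15.6 CPM at the low, medium and high dose. Against the vehicle MT1X also passed, higher, in 3 of 7 medium-dose comparisons, medium-dose Aconiti included, and in 2 of 6 low-dose ones. None of these passed with both left-out libraries kept.

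MT1E fell at the high dose of 4 extracts and rose at that of Bupleuri. Vehicle libraries held 15.3, 16.2 and 16.9 CPM. High-dose Zizyphi held 6.03 and 5.68 CPM (log2 change -1.46 ± 0.15, edgeR adjusted p = 6.89e-10), and high-dose Coptidis 6.82 and 6.90 CPM (-1.23 ± 0.15, adjusted p = 8.91e-10). High-dose Citri held 8.04, 7.85 and 10.0 CPM (-0.89 ± 0.12, adjusted p = 1.29e-07), and high-dose Cimicifugae 8.91, 10.3 and 11.1 CPM (-0.67 ± 0.12, adjusted p = 1.54e-05). All 10 of these libraries were below every vehicle library. High-dose Bupleuri, at 23.2, 22.5 and 22.1 CPM, was above them (0.49 ± 0.11, adjusted p = 0.000189). The same 5 extracts differed in the same direction from their own low doses, by -1.33 ± 0.15 (Zizyphi, adjusted p = 9.55e-08), -0.97 ± 0.11 (Citri, 1.98e-08), -0.95 ± 0.16 (Coptidis, 1.29e-06), -0.73 ± 0.11 (Cimicifugae, 1.06e-05) and 0.35 ± 0.10 (Bupleuri, 0.00379). Both kinds of comparison use the same high-dose libraries. With both left-out libraries kept, the Cimicifugae and Bupleuri calls against the vehicle were lost (edgeR adjusted p = 0.057 and 0.130). Their calls against the low dose were lost as well (edgeR adjusted p = 0.145 and 0.338), while those of Zizyphi, Coptidis and Citri held.

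MT1F was close to the limit of detection, with 2 to 31 counts per library. It passed the test at the high dose of Coptidis, where libraries held 0.258 and 0.111 CPM against 0.429 to 0.684 CPM in the vehicle (-1.49 ± 0.52, edgeR adjusted p = 0.011), a call lost without high-dose replicate 3 (-1.05, adjusted p = 0.149). MT1G and MT1M, at 0 to 6 counts, were not tested. MT1G had a count in 46 and MT1M in 47 of the 60 libraries. Of the 12 metallothionein genes listed, the only other one tested was MT1A, at 1 to 15 counts per library, which rose with high-dose Bupleuri (1.61 ± 0.50, adjusted p = 0.00917).

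The make-up of the family differed between extracts. MT2A took 88.1 to 89.0% of metallothionein counts in the vehicle and 94.1 to 94.3% with high-dose Coptidis. Per kilobase its share was 92.0% with high-dose Coptidis, 87.9% with high-dose Zizyphi and 86.3% with high-dose Bupleuri, against 85.1% in the vehicle. Over the 21 group means of log2 CPM, Pearson's r was 0.842 between MT1E and MT1X, 0.664 between MT1X and MT2A and 0.489 between MT1E and MT2A. Groups in these correlations share sets and library scaling, and the values are descriptive.

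MTF1, the factor that acts on metallothionein promoters, had group means of 34.4 to 48.7 CPM with the extracts. Vehicle libraries held 40.4, 39.3 and 41.4 CPM, and 45 of the 51 extract libraries were below every one of these and 2 above. The highest were the 2 high-dose Coptidis libraries, at 50.2 and 47.1 CPM, above every other library. In log2 terms they exceeded the vehicle by 0.27 ± 0.06 (edgeR adjusted p = 0.000261) and their own low dose, at 37.6 and 37.8 CPM, by 0.37 ± 0.07 (adjusted p = 8.84e-06). Scaling by plain totals turned the former to -0.01 and left the latter at 0.11. High-dose Citri, at 34.8, 32.9 and 35.5 CPM, was lower than the vehicle by 0.23 (-0.23 ± 0.06, adjusted p = 0.00204, and 0.185 with both left-out libraries kept). With high-dose Bupleuri, where MT2A and MT1X were highest, MTF1 stood at 40.2, 39.9 and 37.4 CPM, which overlaps the vehicle.

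SLC30A1 was lower than the vehicle with every extract at every dose tested. Vehicle libraries held 98.1, 98.9 and 99.3 CPM. The 51 extract libraries ran from 51.7 to 80.2 CPM, with a median of 71.9 CPM, and none reached the lowest vehicle library. How many of all genes are so separated from the vehicle was not counted. Of all genes, 7.32% (Coptidis) to 26.9% (Bupleuri) passed against the vehicle at the low dose, in either direction. All 20 comparisons passed the test, with log2 changes of -0.35 to -0.88 and a largest edgeR adjusted p of 0.000246. The lowest were high-dose Citri at 56.7, 51.7 and 52.1 CPM (-0.88 ± 0.06, adjusted p = 1.04e-15) and high-dose Coptidis at 62.2 and 52.9 CPM (-0.78 ± 0.07, adjusted p = 5.10e-14). High-dose Cimicifugae held 59.9, 63.5 and 62.2 CPM (-0.68 ± 0.06, adjusted p = 1.24e-12) and high-dose Zizyphi 63.6 and 65.97 CPM (-0.61 ± 0.06, adjusted p = 2.46e-09). With high-dose Bupleuri it stood at 75.2, 75.3 and 72.3 CPM (-0.41 ± 0.06, adjusted p = 6.24e-08). With both left-out libraries kept, the call held at the high doses of Coptidis, Citri and Aconiti and was lost in the other 17 comparisons with the vehicle. Among those lost, the log2 change was -0.60 ± 0.25 with high-dose Zizyphi and -0.41 ± 0.22 with high-dose Bupleuri, so these estimates stayed while their SE grew. The high-dose Aconiti change then went from -0.40 to -0.79, with the left-out library of that group at 20.5 CPM.

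The vehicle libraries differed from the extract libraries in some other features as well. They belong to none of the extract sets, and they had the lowest summed level of the 6 microglia and leukocyte markers (148 to 155 CPM against 156 to 284 CPM, mostly CD68; AIF1 at 0 CPM in the vehicle) and the highest of the 4 epithelium markers (256 to 265 CPM against 60.6 to 255.5 CPM, mostly KRT18; EPCAM at 0.0192 and CDH1 at 0.0317 CPM in the vehicle). These gaps were narrow, and the summed astrocyte, neuron, oligodendrocyte and endothelium markers overlapped between vehicle and extract libraries. PTPRC, of the leukocyte list, went against its sum, at 13.5 CPM in the vehicle and 10.6 CPM over all libraries tested. The part of such features in the SLC30A1 difference was not tested. The comparisons within sets do not involve the vehicle. SLC30A1 fell from low to high dose with Citri (-0.45 ± 0.06, edgeR adjusted p = 1.39e-07), from 74.2, 74.1 and 71.7 CPM, and with Coptidis (-0.36 ± 0.07, adjusted p = 2.26e-05), from 71.9 and 76.3 CPM. It also fell with Zizyphi (-0.26 ± 0.07, adjusted p = 0.0139) and Cimicifugae (-0.22 ± 0.06, adjusted p = 0.00712). The Zizyphi call was lost without high-dose replicate 2 (adjusted p = 0.0778), high-dose replicate 3 (0.0603) or low-dose replicate 2 (0.167), and the Cimicifugae call without low-dose replicate 1 (0.108). With both left-out libraries kept, none of these 4 passed (adjusted p 0.591 with Citri, 0.284 with Coptidis and 1 with Zizyphi and Cimicifugae).

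With Bupleuri, SLC30A1 did not pass between high and low dose, with a log2 difference of 0.02 (95% interval -0.09 to 0.13, edgeR adjusted p = 0.832), while MT2A rose by 1.12 between the same libraries. With Aconiti the difference was -0.01 (-0.13 to 0.11, adjusted p = 0.955), or -0.41 with both left-out libraries kept (adjusted p = 0.212). Ordered by mean level, the vehicle was first at 98.8 CPM and low-dose Zizyphi next at 77.5 CPM. Among the 20 pairs of neighbours 18 overlapped, and the gaps were below the vehicle and below high-dose Zizyphi. Over the 21 groups Pearson's r of log2 CPM was 0.16 between SLC30A1 and MT2A and -0.03 between SLC30A1 and MTF1.

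**Figure D3:**
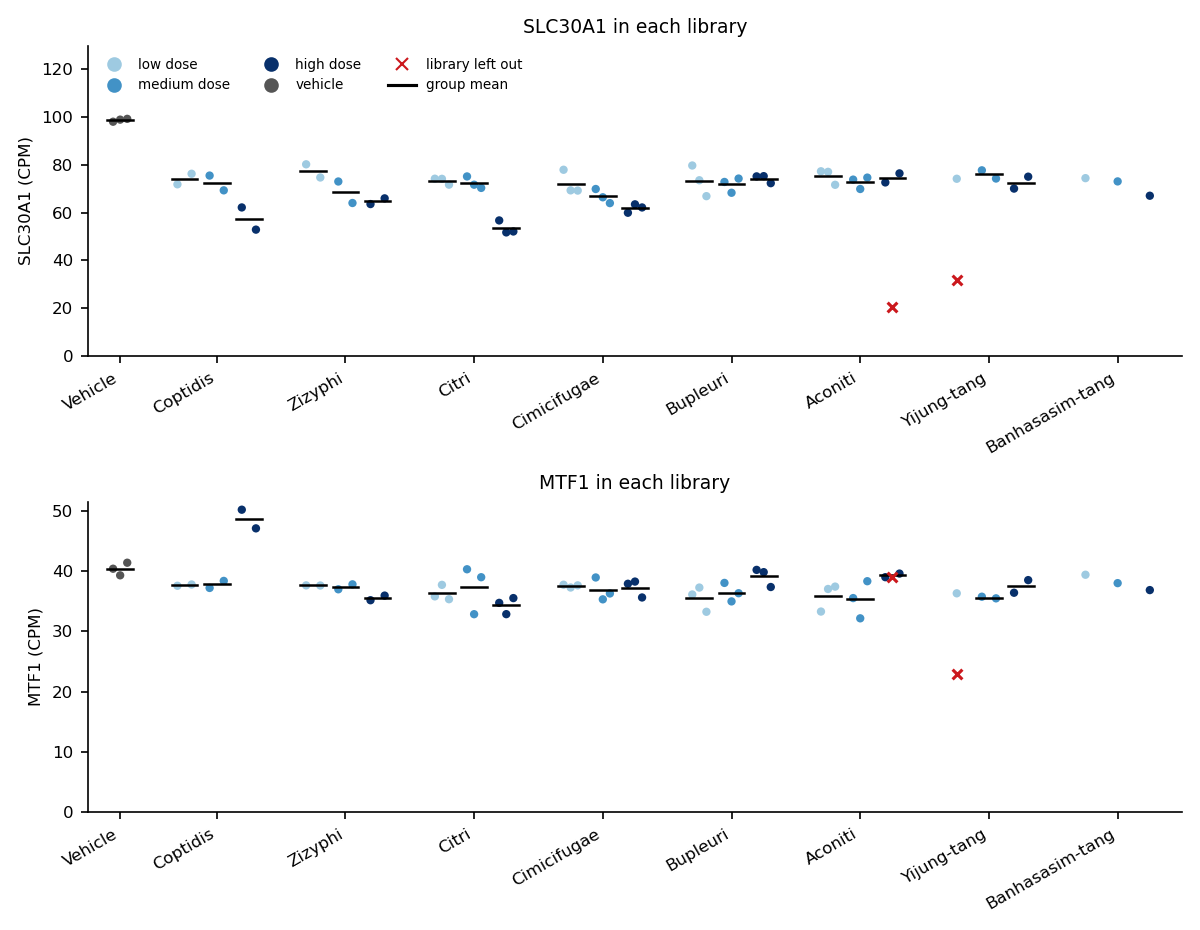
CPM of SLC30A1 and MTF1 in each library by extract and dose, with bars at the group means and crosses for the 2 libraries left out. All 51 extract libraries used lie below the 3 vehicle libraries for SLC30A1, and the 2 high-dose Coptidis libraries are the highest for MTF1.

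**Figure D4:**
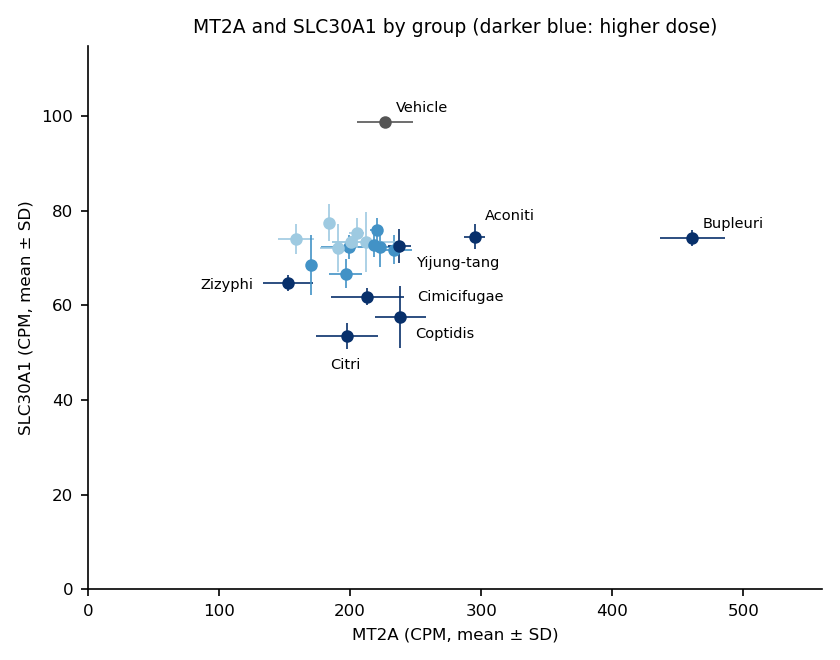
Mean CPM of SLC30A1 (vertical) against MT2A (horizontal) in the 21 groups with replicates, with bars of 1 SD and the vehicle and high-dose groups named. High-dose Bupleuri is at 461 CPM of MT2A with SLC30A1 at 74.3 CPM, near its low dose at 73.4 CPM.

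Across the 6 genes tested, 24 of 42 values passed at the high dose against the vehicle, 7 higher and 17 lower. The share of all 17680 genes called in the same direction gives the background for each extract. With Coptidis 1 was higher (34.0% of all genes) and 4 were lower (32.6%), in a comparison where most genes passed. With Zizyphi 0 were higher (9.64%) and 5 lower (12.0%), with Citri 0 higher (14.3%) and 3 lower (17.1%), and with Cimicifugae 0 higher (16.5%) and 2 lower (19.2%). With Bupleuri 3 were higher (20.2%) and 1 lower (19.4%), with Aconiti 2 higher (12.7%) and 1 lower (15.0%), and with Yijung-tang 1 higher (14.1%) and 1 lower (16.7%). The median log2 change of the 6 genes was -0.74 with Coptidis, -0.59 with Zizyphi and 0.22 with Bupleuri, where the median of all genes was between -0.02 and 0.

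At the medium dose 13 of 42 values passed against the vehicle, of which 7 were SLC30A1, lower with each extract. The background was 25.9% of genes with Coptidis, 13.7% with Zizyphi, 17.9% with Citri, 31.8% with Cimicifugae, 22.7% with Bupleuri, 26.2% with Aconiti and 15.3% with Yijung-tang. At the low dose 13 of 36 passed, of which 6 were SLC30A1, against 7.32% of genes with Coptidis, 11.8% with Zizyphi, 16.1% with Citri, 20.8% with Cimicifugae, 26.9% with Bupleuri and 20.0% with Aconiti. Apart from SLC30A1, calls at these doses came to 13, and 9 of these were lost when a single library was left out.

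Between high and low doses of the same set 19 of 36 values passed, 7 higher and 12 lower. With Coptidis 2 were higher (33.2% of all genes) and 4 lower (32.4%), with Zizyphi 0 higher (3.12%) and 3 lower (4.28%), with Citri 0 higher (6.44%) and 3 lower (7.34%), and with Cimicifugae 0 higher (4.88%) and 2 lower (5.81%). With Bupleuri 4 were higher (20.6%) and 0 lower (18.6%), and with Aconiti 1 higher (4.28%) and 0 lower (5.25%). Between medium and low doses only the 2 Coptidis values of MT2A and MT1E passed (background 13.6%, and 0.00566% with Zizyphi, 0.00566% with Citri, 0.385% with Cimicifugae, 0.368% with Bupleuri and 0.0509% with Aconiti); the MT1E value (0.43 ± 0.13, edgeR adjusted p = 0.0214) was lost without medium-dose replicate 2 (0.331) or low-dose replicate 3 (0.295). Yijung-tang high against medium gave 0 calls by edgeR (1 at an unadjusted p under 0.05, MT1X at 0.0334; 0 by DESeq2) where 9.16% of genes passed.

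**Figure D5:**
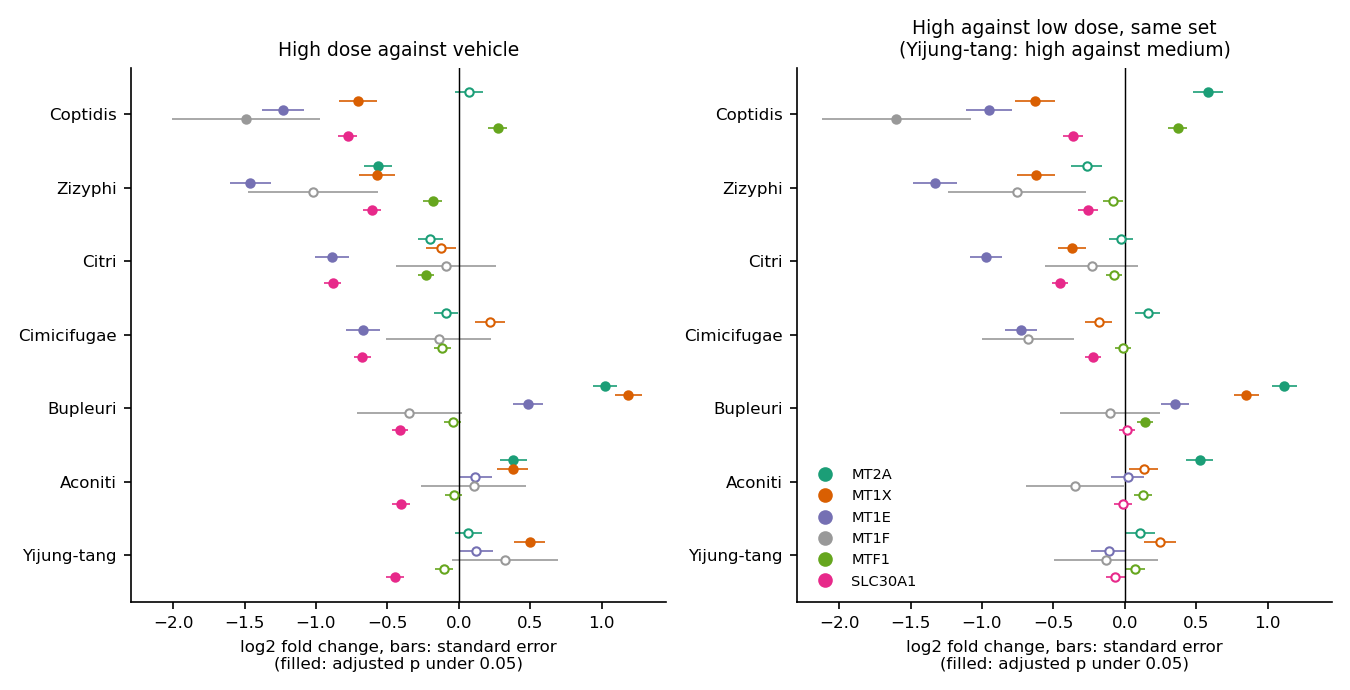
Log2 fold changes (points, bars of 1 SE, filled where the edgeR adjusted p is under 0.05) of the 6 genes tested, for each high dose against the vehicle (left) and against the low dose of the same extract (right; Yijung-tang against its medium dose). MT2A and MT1X reach 1.02 and 1.19 with Bupleuri on the left, where SLC30A1 is below 0 for all 7 extracts.

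Whether the change from low to high dose differed between the 2 herbs of a set was tested with an interaction contrast chosen after the data were seen. With Coptidis against Zizyphi 2 of 6 values passed (background 55.3%), MT2A and MTF1, both more positive with Coptidis; the MT2A call was lost with both left-out libraries kept (adjusted p = 0.0732). With Bupleuri against Aconiti 2 of 6 passed (background 23.4%), MT2A and MT1X, both more positive with Bupleuri; here too the MT2A call was lost with both kept (adjusted p = 0.274). With Citri against Cimicifugae 0 of 6 passed by edgeR (background 1.07%). Of these, SLC30A1 alone had an unadjusted p under 0.05 (log2 difference -0.23, edgeR adjusted p = 0.217).

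Citri and Cimicifugae share a set and their doses, so they could be compared directly. High-dose Citri differed from high-dose Cimicifugae in 2 of 6 values, both lower, MT1X (-0.34 ± 0.10, edgeR adjusted p = 0.0273) and SLC30A1 (-0.21 ± 0.06, adjusted p = 0.0207), where 6.67% of genes passed. Neither call held when single libraries were left out (adjusted p up to 0.253 for MT1X without Cimicifugae replicate 3, and up to 0.0819 for SLC30A1 without Citri replicate 3).

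Other genes of zinc and copper handling, and of responses known to induce metallothioneins, were counted in lists at the high dose against the vehicle. For each extract the counts stand beside the shares of all genes given above for the same comparison, higher and lower: 34.0% and 32.6% with Coptidis, 9.64% and 12.0% with Zizyphi, 14.3% and 17.1% with Citri, 16.5% and 19.2% with Cimicifugae, 20.2% and 19.4% with Bupleuri, 12.7% and 15.0% with Aconiti and 14.1% and 16.7% with Yijung-tang. Nothing particular to the lists was tested. Of the 10 exporters of the SLC30 family, 8 were tested, SLC30A1 included. Against the vehicle 3 rose and 3 fell with high-dose Coptidis, 1 rose and 2 fell with Bupleuri, 3 fell with each of Zizyphi, Citri and Cimicifugae, and 2 fell with each of Aconiti and Yijung-tang. List medians were -0.0964 to -0.0047, near the median of all genes. SLC30A5 and SLC30A7, which load zinc into the secretory pathway, rose with Coptidis by 0.44 ± 0.05 and 0.29 ± 0.04 and fell with Citri by 0.22 each, both called by edgeR. SLC30A6, the partner of SLC30A5, fell with Coptidis by 0.46, from 49.3 ± 0.735 to 35.9 ± 0.333 CPM. SLC30A2, an exporter into vesicles, went from 0.0366 ± 0.0325 CPM in the vehicle to 2.59 ± 0.516 CPM with high-dose Coptidis (adjusted p = 3.69e-11).

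Of the 14 importers (SLC39), 11 were tested. With Coptidis 5 rose and 2 fell, with Bupleuri 3 and 5, with Zizyphi 1 and 4, with Citri 2 and 2, with Cimicifugae 2 and 5, with Aconiti 0 and 3 and with Yijung-tang 3 and 4. SLC39A14, a plasma membrane importer of zinc and iron, stood at 205 ± 2.60 CPM in the vehicle and 446 ± 14.8 CPM with high-dose Coptidis (log2 change 1.12 ± 0.04, edgeR adjusted p = 4.74e-28). It rose by 0.17 ± 0.03 with Bupleuri and fell by 0.55 with Zizyphi, 0.43 with Citri, 0.34 with Cimicifugae and 0.27 with Aconiti. SLC39A8, a related importer, fell by 1.23 with Coptidis (from 19.3 ± 1.65 to 8.25 ± 0.0175 CPM) and by 0.55 with Bupleuri.

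Of 11 copper-handling genes 9 were tested, and 4 rose and 3 fell with Coptidis, 1 and 3 with Bupleuri, 2 and 2 with Cimicifugae, 1 and 1 with Citri and with Aconiti, 2 and 1 with Yijung-tang and 0 with Zizyphi. SLC31A2, a copper transporter of intracellular membranes, rose with Bupleuri (0.86 ± 0.09, edgeR adjusted p = 1.16e-10) and Coptidis (0.83 ± 0.10, adjusted p = 2.29e-09). ATP7A, a copper-exporting ATPase, fell by 1.203 with Coptidis, from 79.9 ± 2.56 to 34.7 ± 1.99 CPM.

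Of 14 NRF2 and glutathione genes, 12 rose and 0 fell with Cimicifugae, 11 and 0 with Yijung-tang, 10 and 0 with each of Bupleuri and Aconiti, 10 and 2 with Coptidis, 7 and 2 with Citri and 5 and 2 with Zizyphi. HMOX1, an NRF2 target that degrades haem, rose from 58.3 ± 1.79 CPM to 495 ± 10.4 CPM with Aconiti, 483 ± 18.7 CPM with Cimicifugae and 270 ± 7.80 CPM with Bupleuri. MT2A in the same groups stood at 295, 213 and 461 CPM, so the order of these groups differed between the genes. Of 13 heat shock genes, 7 rose and 3 fell with Bupleuri, 2 and 10 with Coptidis, 4 and 0 with Zizyphi, 3 and 4 with Citri and with Yijung-tang, 2 and 6 with Cimicifugae and 3 and 1 with Aconiti. HSPA1A, an inducible HSP70, fell by 2.64 with Coptidis and rose by 0.33 ± 0.06 with Bupleuri. Of 9 glucocorticoid targets tested, 2 rose and 5 fell with Bupleuri, 5 and 2 with Coptidis and with Aconiti, 6 and 1 with Citri, 4 and 0 with Zizyphi, 5 and 0 with Cimicifugae and 2 and 3 with Yijung-tang.

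Among 11271 genes of at least 5 CPM, those whose group means over the 21 groups were most like MT2A were HPCAL1 (Pearson's r of log2 CPM 0.958), KLHL21 (0.934), LRFN4 (0.929), SLC66A1 (0.917), VPS18 (0.896) and DUSP3 (0.893). Among those most like SLC30A1 were PTDSS1 (0.851), PPP4R1 (0.837), TMX1 (0.831), ZMPSTE24 (0.829) and LIPG (0.821). Without the vehicle group, r with SLC30A1 was 0.820, 0.729, 0.779, 0.758 and 0.856 in the same order. These genes were chosen for their likeness out of all compared, so the values carry no test.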

How the data were processed

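RNA of 60 libraries of SW1783 cells was sequenced as 100-base paired ends from a strand-marking kit, per the labels' protocols. The authors deposited expected counts for each gene. The submitters' processing notes list STAR 2.7.3a, RSEM 1.3.3, FastQC 0.11.9 and Trim Galore 0.6.5 with hg38; annotation and strand setting are not stated in the sources used here. Values were rounded (9.18% were not whole). Groups follow the extract and dose in the labels, and 54 libraries of 21 groups entered one fit. The 2 libraries left out, 1 of low-dose Yijung-tang and 3 of Banhasasim-tang had no test. Genes passing filterByExpr at a minimum count of 10 (17680) were TMM-scaled and tested by edgeR 4.0.16 (R 4.3.3; glmQLFit, glmQLFTest) in 34 comparisons, and Benjamini-Hochberg adjustment was made separately in each. An adjusted p under 0.05 is called, SE is the log2 change over the square root of F, and intervals cover 1.96 SE. Replicate numbers were not used as pairs, since over all genes same-numbered libraries barely correlated. Up to 4 genes of each other list are named, those with the smallest p at a high dose. The members and lists were chosen with earlier results of these data known. Alternatives were both left-out libraries kept, DESeq2 1.42.0, its size factors, no filter, unrounded values, a replicate block, separate fits per extract, each replicate left out and plain totals. One gene that met a naming rule is not reported here. Scripts were tested on simulated data.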

Additional observations from a re-analysis of the deposited data

Results flagged for a closer look

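The change from low to high dose differed between the herbs of a set in 4 values, by an interaction contrast in the edgeR fit chosen after the data were seen. The share of all genes passing was 55.3% for Coptidis against Zizyphi and 23.4% for Bupleuri against Aconiti. For MT2A the Coptidis change exceeded the Zizyphi change by 0.852 ± 0.15 on the log2 scale (adjusted p = 4.76e-06), and for MTF1 by 0.452 ± 0.10 (adjusted p = 0.000121). For MT1X the Bupleuri change exceeded the Aconiti change by 0.718 ± 0.14 (adjusted p = 5.97e-05), and for MT2A by 0.593 ± 0.13 (adjusted p = 0.000365). With both left-out libraries kept, MTF1 and MT1X still passed (adjusted p = 0.028 and 0.0385) and the 2 MT2A values did not (0.0732 with Coptidis and 0.274 with Bupleuri). Scaled by plain totals, the Coptidis differences were 0.17 in place of 0.45 for MTF1 and 0.57 in place of 0.85 for MT2A, as log2 ratios of group means. Doses in mass differ within both pairs.

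In libraries outside the tests, 6 values of the members averaging at least 1 CPM in the vehicle exceeded the highest vehicle library by more than 3 SD of the vehicle. The left-out low-dose Yijung-tang library held 855.6 CPM of MT2A, 39.29 CPM of MT1X and 61.86 CPM of MT1E, against 206, 15.1 and 16.5 CPM in the other library of that group, with MTF1 at 23.0 and SLC30A1 at 31.8 CPM. Of the members below that level it held 2.42 CPM of MT1F and 0.391 CPM of MT1G, from 31 and 5 counts. The left-out high-dose Aconiti library held 365.3 CPM of MT2A and 15.94 CPM of MT1X, with SLC30A1 at 20.5 CPM. The single medium-dose Banhasasim-tang library held 20.74 CPM of MT1E.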

How the results depend on the processing

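No value changed sign where it was called, except MTF1 under plain totals as given above. The dose contrasts between herbs were rerun only with both left-out libraries kept and under plain totals. With both left-out libraries kept, edgeR calls went from 24 to 11 (high dose against vehicle), 13 to 0 (medium), 13 to 0 (low), 19 to 8 (high against low), 2 to 0 (medium against low) and 2 to 0 (Citri against Cimicifugae); at an unadjusted p under 0.05 these came to 21, 6, 4, 14, 0 and 1. The cause was not tested. Separate fits per extract kept 70 of 73 calls, with 1 in place of 2 between Citri and Cimicifugae. DESeq2's size factors kept 72, its Wald test 71, no filter 70, unrounded values 73 and the replicate block 72. Of 131 values not called, 12 passed with no filter, 4 with the block, 4 in separate fits and 5 when a single library was left out; with both left-out libraries kept, with DESeq2 and with unrounded values 0 did. Leaving out single libraries kept 53 throughout. The counts then ran from 0 to 2 between medium and low dose (0 without low-dose Coptidis replicate 3, 1 without medium-dose Coptidis replicate 2) and from 0 to 2 between Citri and Cimicifugae (0 without Citri replicate 2 or Cimicifugae replicate 3). Under plain totals, which lower the median of all genes by 0.22 with high-dose Coptidis, the metallothionein sum was 209.5 CPM at its high and 227.5 CPM at its medium dose, and 338.5 CPM with high-dose Aconiti. With the replicate block, high-dose counts stayed at 24 and medium-dose counts went from 13 to 16. Over all genes, same-numbered libraries correlated at -0.068 to 0.139 and were not taken as pairs. In the metallothionein sum, however, Citri replicate 1 was lowest and Bupleuri replicate 3 highest at every dose, while Cimicifugae showed no such order. Depth limits MT1F, MT1G and MT1M.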

Other observations

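The Banhasasim-tang libraries, 1 per dose and untested, held 245, 231 and 204 CPM of MT2A at the high, medium and low dose. The vehicle libraries held 211 to 251 CPM. Their SLC30A1 levels were 67.1, 73.1 and 74.4 CPM, below every vehicle library. The pseudogene MT1L, which lies between MT2A and MT1E in the cluster, rose with the high doses of Bupleuri (0.61 ± 0.22, edgeR adjusted p = 0.0279) and Aconiti (0.74 ± 0.24, adjusted p = 0.0156), from 1.09 ± 0.102 CPM in the vehicle (n = 3).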
